A study of Mus musculus with 7 samples.

Results

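The genes described here make cholesterol and fatty acids, regulate that synthesis through the SREBP transcription factors, or export sterol from the cell. The 35 genes were taken by name, as every non-control probe whose gene name in the scanner files was 1 of the listed symbols, out of 24048 named genes on the array. They had 53 probes, of which 50 gave signal well above background on 3 or more arrays of the 7, and each of the 35 genes had such a probe and entered the comparison. They fell into 18 genes of sterol synthesis and transport, 5 genes of SREBP regulation, 9 genes of fatty acid synthesis and 3 genes of sterol efflux.

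RNA was measured by 1-colour microarray in CD8 T cells from mouse lymph node that had been cultured for 24 h with 100 nM SIINFEKL, the ovalbumin peptide seen by the OT-1 T cell receptor. All samples carried a heterozygous OT-1 transgene on a Rag-/- background, which leaves that receptor as the only one the T cells can make. The 4 WT samples had their own Lck, the kinase that starts signalling when the receptor binds antigen. The 3 Lck-/- samples lacked it and had carried a doxycycline-dependent knocked-in Lck, which was removed by taking doxycycline out of the diet for 7 days before the cells were activated. The sources used here do not give the age of the mice, the promoter of the inducible Lck or whether WT mice were fed doxycycline. The series states that the samples are biological replicates, and no label ties a sample to an animal.

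Cholesterol is built from acetyl-CoA through mevalonate, isoprenoids and squalene, and dividing cells need it for new membrane. The enzymes of this route are induced together by SREBP2, which the escort protein SCAP carries from the endoplasmic reticulum to the Golgi when sterol is low, and which the INSIG proteins hold back when sterol is high. SREBP1 acts more on the genes that make and desaturate fatty acids, and the oxysterol receptors LXR induce the exporters ABCA1 and ABCG1 when sterol is plentiful. Naive T cells take up this programme after activation, as they grow and begin to divide.

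Values are log2 of the processed signal minus the 75th percentile of that array, so 0 is a spot at the 75th percentile of its array, and signals of different genes are not compared because each probe has its own sensitivity. All 7 arrays lay on 1 slide, 46.6% to 61.1% of spots per array stood well above background, 0 were saturated, and arrays correlated at 0.977 to 0.991 over genes. The T cell markers Cd3d, Cd3e, Cd3g, Cd8a and Cd8b1 were well above background on every array. Lck signal went against 2 labels: it was 7.44, 7.67, 7.36 and 6.04 on WT 1 to WT 4 and 8.02, 6.21 and 6.17 on Lck-/- 1 to Lck-/- 3, so that the lowest value was on an array labelled WT and the highest on an array labelled Lck-/-. The part of Lck under the single probe that the knockout removes is not stated, and the probe may check nothing. The same arrays, WT 4 and Lck-/- 1, also correlated most with an array of the other label. WT 4 correlated at 0.991 with Lck-/- 2, against 0.982 to 0.985 with the WT arrays. Lck-/- 1 correlated at 0.989 with WT 3, against 0.981 and 0.985 with Lck-/- 2 and Lck-/- 3. The reason was not tested. The labels give no sex, and genes of the sex chromosomes differed between arrays. Xist, expressed from the inactive X chromosome, read 1.43, -6.43, -7.31 and -6.38 on WT 1 to WT 4 and 0.51, -0.29 and 1.04 on Lck-/- 1 to Lck-/- 3. The Y-linked Eif2s3y read -6.31, 3.23, 3.16 and 3.32 on the WT arrays and 2.54, 2.94 and -6.82 on the Lck-/- arrays. WT 1 and Lck-/- 3 were thus high for Xist alone, WT 2, WT 3 and WT 4 for Eif2s3y alone, and Lck-/- 1 and Lck-/- 2 for both. No array labelled Lck-/- had the pattern of the last 3 WT arrays, and the part of this difference in the lipid gene values was not tested. Directions below are between arrays as labelled. Class medians are also given without both WT 4 and Lck-/- 1. Single-gene values given without Lck-/- 1 keep WT 4.

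The start regions of the genes were compared for letters that sterol-responsive promoters are known to share. RefSeq promoters (GRCm38.p6) were held for 27 of the 35 genes, as 35 promoters, and the 250 bases before each start were searched on both strands. No promoter was held for Abcg1, Fads1, Fdft1, Fdps, Scd1, Scd2, Sqle and Stard4. The motifs were the sterol regulatory element core TCACNCCAC, the NF-Y box CCAAT, the E-box CACGTG and the LXR direct repeat, which is AGGTCA again after 4 bases. NF-Y is a factor that acts beside SREBP at many of its targets. A CCAAT box was present in 12 of 17 promoters of sterol synthesis genes (70.6%), in 5 of 10 promoters of SREBP regulation genes, in 2 of 6 of fatty acid genes and in 0 of 2 of efflux genes, against 33.8% of all 32851 promoters in the table. The sterol element core was found in 1 member promoter, that of Hmgcs1 (1.05% of all promoters held it), and the E-box in 6 of the 35 (6.02% of all). The LXR repeat was found in none of the 35. Only exact copies were searched, and 5 of all 32851 promoters (0.0152%) held this repeat. Its absence from the members therefore says little about LXR sites with other letters. Matches are descriptions of letters, and no binding was measured. The 5 promoters below are shown because they span this range: Hmgcs1 holds the sterol element core with 3 CCAAT boxes, Mvk has 5 such boxes, Idi1 has 2 and the neighbouring gene Idi2 none, and Fasn, of the fatty acid branch, has 3. Capitals mark the matches on either strand, of which 2 overlap in Fasn, and each run ends at the base before the start.
Hmgcs1 (chr13:119690101-119690350, plus strand): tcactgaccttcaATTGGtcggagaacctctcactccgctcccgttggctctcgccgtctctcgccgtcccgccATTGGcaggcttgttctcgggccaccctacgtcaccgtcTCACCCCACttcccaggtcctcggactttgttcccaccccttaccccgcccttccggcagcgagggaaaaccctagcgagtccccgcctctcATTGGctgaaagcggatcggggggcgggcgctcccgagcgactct
Mvk (chr5:114444019-114444268, plus strand): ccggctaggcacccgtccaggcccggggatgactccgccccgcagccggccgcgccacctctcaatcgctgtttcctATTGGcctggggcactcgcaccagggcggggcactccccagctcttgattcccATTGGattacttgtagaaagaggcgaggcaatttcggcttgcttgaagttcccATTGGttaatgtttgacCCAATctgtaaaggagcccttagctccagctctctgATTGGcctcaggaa
Idi1 (chr13:8885356-8885605, plus strand): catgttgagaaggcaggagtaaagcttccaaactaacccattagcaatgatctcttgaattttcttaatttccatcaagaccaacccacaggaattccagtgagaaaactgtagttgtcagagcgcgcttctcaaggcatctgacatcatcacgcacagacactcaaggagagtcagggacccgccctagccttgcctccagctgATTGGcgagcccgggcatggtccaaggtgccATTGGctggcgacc
Idi2 (chr13:8952613-8952862, plus strand): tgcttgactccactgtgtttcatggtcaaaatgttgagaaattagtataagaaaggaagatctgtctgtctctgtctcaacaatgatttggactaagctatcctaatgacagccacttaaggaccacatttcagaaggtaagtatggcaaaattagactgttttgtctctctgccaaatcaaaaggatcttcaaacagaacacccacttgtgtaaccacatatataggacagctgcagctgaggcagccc
Fasn (chr11:120824548-120824797, minus strand): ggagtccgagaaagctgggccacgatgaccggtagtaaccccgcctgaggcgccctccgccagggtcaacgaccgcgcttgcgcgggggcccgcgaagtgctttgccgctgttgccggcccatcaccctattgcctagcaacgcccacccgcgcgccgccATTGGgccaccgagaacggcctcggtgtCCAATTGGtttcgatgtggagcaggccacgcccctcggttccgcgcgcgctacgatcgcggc

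Signal of the lipid synthesis genes was mostly lower on the arrays labelled Lck-/-, but no gene passed the test. Of the 35 members, 32 had a negative difference (91.4%), where 42.4% of the 14848 genes tested did, and the median difference was -0.23 against 0.04 over all genes. In limma with Benjamini-Hochberg adjustment 0 of the 35 members were called at 0.05, as were 0 of all genes (0%), while 1052 genes lay below an unadjusted p of 0.05. Only 1 member, Idi2, had an unadjusted p under 0.05 with lower signal in Lck-/-, against 2.17% of all genes, and none had one with higher signal, against 4.92%. Idi2 was also the only member whose groups did not overlap (2.86% of members), against 2.14% of all genes below and 5.09% above, and the other 34 overlapped. The count of negative differences comes from genes measured on the same arrays, so it is not a count of independent events.

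**Figure D1:**
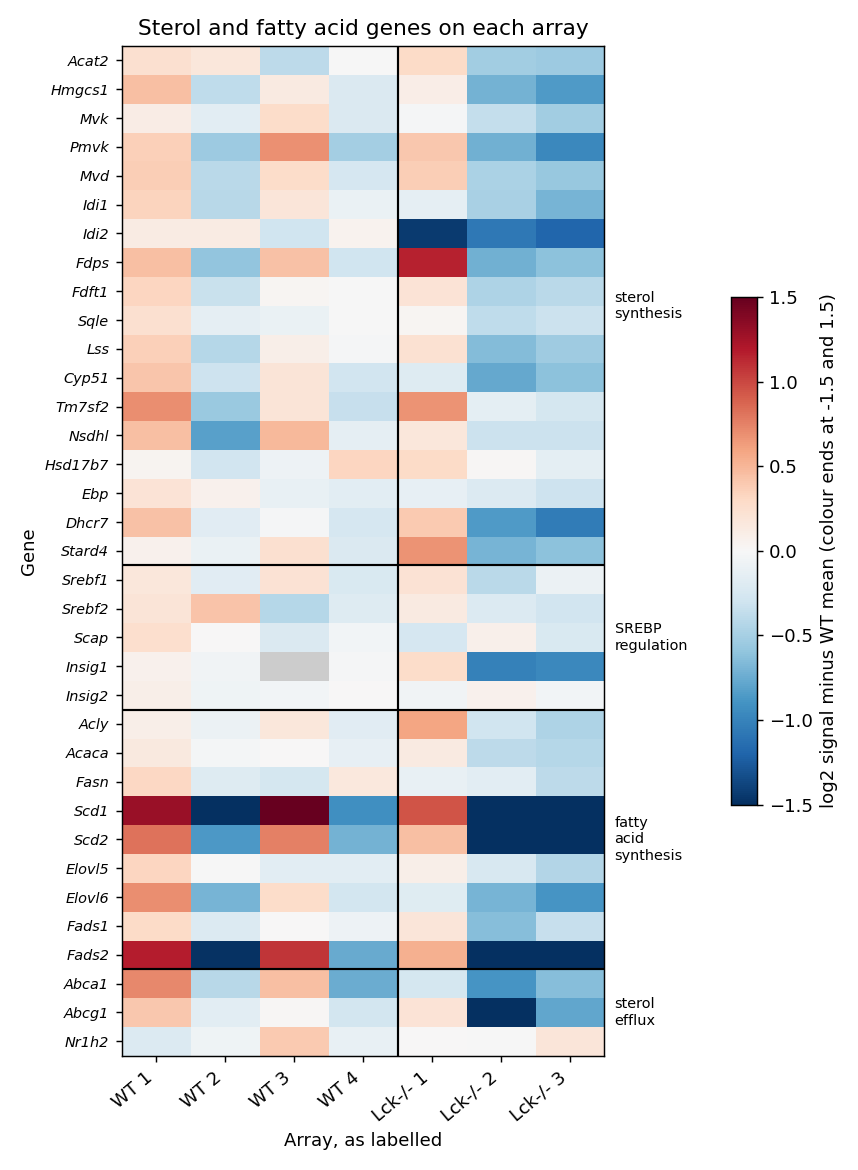
Log2 signal of each of the 35 genes (rows) on each of the 7 arrays (columns), as the difference from the gene's mean over the WT arrays; blue is lower, red is higher, colour stops at 1.5 in either direction and grey marks a value left out as an outlier spot. Lck-/- 2 and Lck-/- 3 are blue over most rows, while on Lck-/- 1 only Idi2 and Scap lie below every WT array and 6 genes lie above every WT array. The share of all genes above every WT array was not counted.

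The lower signal lay on 2 of the 3 arrays labelled Lck-/-. On Lck-/- 2, 27 of the 35 genes were below every WT array, and on Lck-/- 3 again 27, where 13.6% and 20.2% of all genes were. On Lck-/- 1 only 2 were, Idi2 and Scap, against 13.7% of all genes, and 6 were above every WT array. The share of all genes above every WT array on Lck-/- 1 was not counted, so the 6 are a description only. The lowest of the 7 values fell on Lck-/- 2 for 13 genes and on Lck-/- 3 for 14, and the highest on WT 1 for 20. These arrays were not set apart by any label. Gene values given below without Lck-/- 1 leave out the array that goes against the lower signal, so those drops are larger. The matching values without Lck-/- 2 or Lck-/- 3 are not given for single genes.

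The first steps of sterol synthesis condense acetyl-CoA to HMG-CoA and turn mevalonate into activated isoprenoid. Hmgcs1, the HMG-CoA synthase, read 5.88, 5.04, 5.56 and 5.21 on WT 1 to WT 4 and 5.52, 4.71 and 4.57 on Lck-/- 1 to Lck-/- 3. The first Lck-/- value lay among the WT values and the other two below them all. The group means were 5.42 ± 0.37 (SD, n = 4) and 4.94 ± 0.51 (SD, n = 3). They differed by -0.49 (limma SE 0.29, adjusted p = 0.79). Without Lck-/- 1 the difference was -0.78. Its probe lies at mm9 chromosome 13_random, 114793 to 114852, and the second Hmgcs1 probe, well above background on 3 arrays, differed by -0.29. The thiolase Acat2 differed by -0.26, the mevalonate kinase Mvk by -0.30, the phosphomevalonate kinase Pmvk by -0.43 and the decarboxylase Mvd by -0.22. As a group, the mean of these 5 genes relative to the WT mean was 0.31, -0.26, 0.20 and -0.24 on WT 1 to WT 4 and 0.23, -0.56 and -0.69 on Lck-/- 1 to Lck-/- 3.

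Idi2, which encodes an isopentenyl diphosphate isomerase paralogous to Idi1, was the member with the smallest p-value, as earlier results of these data had shown. Its signal was -2.13, -2.12, -2.55 and -2.19 on WT 1 to WT 4 and -3.68, -3.32 and -3.44 on Lck-/- 1 to Lck-/- 3. Every Lck-/- array was below every WT array, including Lck-/- 1, which was the lowest of all. The WT mean of -2.25 ± 0.20 (SD, n = 4) compared with -3.48 ± 0.18 (SD, n = 3) for Lck-/-. The difference was -1.23 (SE 0.17), or 2.35-fold lower, with a 95% interval for this gene alone of -1.62 to -0.85. Over all genes it did not pass (limma adjusted p = 0.588, unadjusted p = 8.12e-05). The difference was -0.66 after normexp background correction and -0.67 in the deposited values. It stayed negative in all 18 alternatives, with adjusted p from 0.121 to 0.999. The value rests on 1 probe (mm9 chromosome 13, 8959955 to 8960014). The other Idi2 probes were well above background on 2 and on 0 of the 7 arrays, with differences of -0.31 and -0.61, and were not tested.

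Idi1, the isomerase gene that most tissues use, had a smaller difference. It read 5.58, 4.83, 5.42 and 5.14 on WT 1 to WT 4 and 5.11, 4.75 and 4.54 on Lck-/- 1 to Lck-/- 3 (mm9 chromosome 13, 8891524 to 8891583). The groups overlapped through Lck-/- 1, and the difference was -0.44 (SE 0.22, limma adjusted p = 0.749, 95% interval -0.96 to 0.07). The intervals of Idi1 and Idi2 share a stretch, and the difference between these genes was not tested. Fdps, the farnesyl diphosphate synthase, behaved otherwise: its values were 6.36, 5.31, 6.35 and 5.61 in WT and 7.06, 5.18 and 5.29 in Lck-/-. Lck-/- 1 held the highest of all 7 values and the other two Lck-/- arrays the lowest, so that the mean difference was -0.06 (SE 0.49, 95% interval -1.20 to 1.07). Without Lck-/- 1 it was -0.67. Over the 18 alternatives the Fdps difference ran from -0.77 to 1.11 and changed sign in 6.

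**Figure D2:**
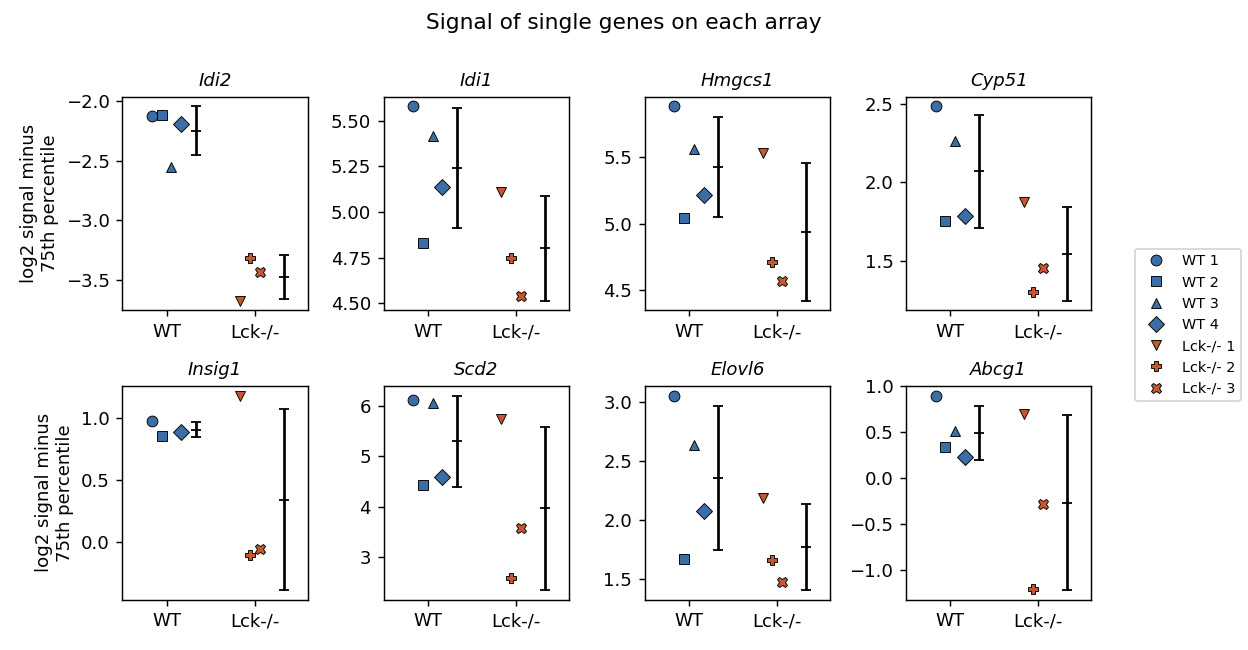
Log2 signal relative to the 75th percentile of each array for 8 genes; symbols are single arrays, horizontal ticks the group means and bars 1 SD (4 WT and 3 Lck-/- arrays, 3 WT values for Insig1). Only for Idi2 do the groups lie apart, while for the other 7 genes Lck-/- 1 lies within or above the range of the WT arrays.

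Of the 9 genes that take farnesyl diphosphate through squalene to cholesterol, 7 had negative differences. Cyp51, the lanosterol demethylase, came next after Idi2 in p-value. It read 2.48, 1.75, 2.26 and 1.78 in WT and 1.88, 1.30 and 1.45 in Lck-/- (mm9 chromosome 5, 4081471 to 4081530). The values of Lck-/- 2 and Lck-/- 3 lay below all WT values and that of Lck-/- 1 among them. The difference was -0.53 (SE 0.23, limma adjusted p = 0.708, 95% interval -1.07 to 0.02). Ebp, the sterol isomerase, read 5.62, 5.48, 5.30 and 5.26 in WT and 5.29, 5.21 and 5.11 in Lck-/-, a narrow spread with a difference of -0.21 (SE 0.14), and lies on the X chromosome (mm9, 7762463 to 7762522).

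The squalene synthase Fdft1, the epoxidase Sqle and the cyclase Lss differed by -0.22, -0.22 and -0.32. Dhcr7, which makes cholesterol in the last step, read from 0.94 to 1.62 in WT and 1.58, 0.33 and 0.14 on Lck-/- 1 to Lck-/- 3. Its difference was -0.50, and -0.95 without Lck-/- 1. Nsdhl, of the C4 demethylation complex and also X-linked, differed by -0.16. The other demethylation gene Hsd17b7 (0.05) and the sterol reductase Tm7sf2 (0.09) were the 2 sterol genes with positive differences. Both became negative (-0.15 and -0.12) when arrays were scaled to their median. That scaling lowered the median of all genes too, from 0.04 to -0.16, so the change of sign is not particular to these genes. Stard4, which carries sterol between membranes, differed by -0.21, and its values on Lck-/- arrays ran from 1.77 to 3.14 around a WT range of 2.25 to 2.71.

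Over the 18 genes of sterol synthesis, 16 had negative differences and the median was -0.24. The mean relative to WT was 0.32, -0.29, 0.12 and -0.15 on WT 1 to WT 4 and 0.17, -0.53 and -0.58 on Lck-/- 1 to Lck-/- 3. Lck-/- 1 thus lay above WT 2, WT 3 and WT 4, while Lck-/- 2 and Lck-/- 3 lay below all WT arrays. Leaving out Lck-/- 1 gave a median of -0.56, whereas it was -0.15 when Lck-/- 2 was left out and -0.16 when Lck-/- 3 was. Leaving out the arrays with discordant Lck, WT 4 and Lck-/- 1, gave -0.60.

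The genes that control SREBP showed small differences except for Insig1. Insig1, itself a target that SREBP induces, read 0.98, 0.86 and 0.89 on WT 1, WT 2 and WT 4 (WT 3 was left out as an outlier spot) and 1.18, -0.11 and -0.06 on Lck-/- 1 to Lck-/- 3. The WT values lay close together, Lck-/- 1 was above them and the other two were below. The difference was -0.57 (SE 0.35, limma adjusted p = 0.806), and -0.99 without Lck-/- 1. Insig2, the INSIG gene that sterol does not induce, read 1.29, 1.13, 1.16 and 1.21 in WT and 1.15, 1.26 and 1.16 in Lck-/-. Its difference was -0.01 (SE 0.12, 95% interval -0.29 to 0.28), and a second, dimmer Insig2 probe gave 0.33 with every Lck-/- value above every WT value.

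Srebf2, which encodes SREBP2, read 2.70, 2.94, 2.08 and 2.32 in WT and 2.64, 2.30 and 2.23 in Lck-/-, all within the WT range. Its difference was -0.12 (SE 0.23), and 0.05 for its second probe. Srebf1, which encodes SREBP1, read -1.08, -1.42, -1.03 and -1.48 in WT and -1.03, -1.65 and -1.34 in Lck-/-, a difference of -0.09 (SE 0.20). Scap, the escort, read 5.39, 5.15, 4.93 and 5.10 in WT and 4.88, 5.21 and 4.91 in Lck-/-, a difference of -0.14 (SE 0.16). The median over the 5 regulators was -0.12, and each difference was below 0. That of Insig2 was above 0 in 9 of 18 alternatives, up to 0.16 with the mean of its probes. The array labelled Lck-/- 1 was the lowest of all 7 for Scap.

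**Figure D3:**
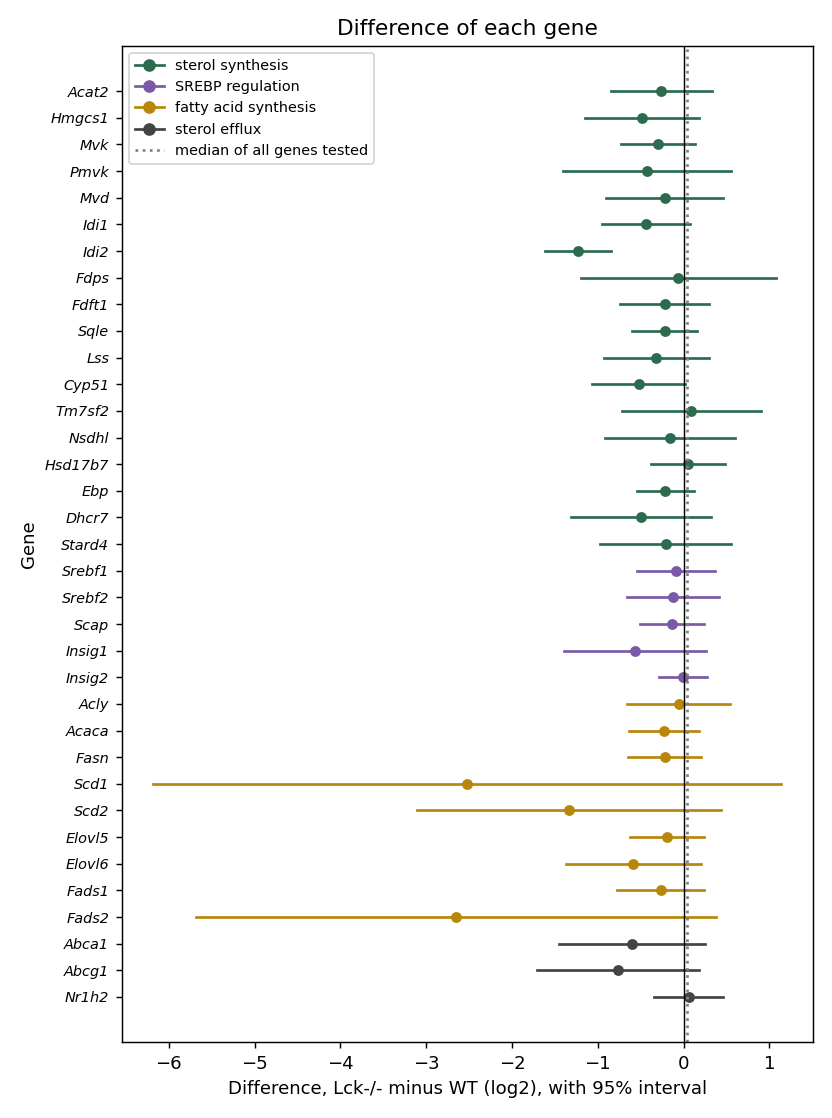
Difference of each of the 35 genes between the arrays labelled Lck-/- and WT (log2, points) with the 95% interval from the limma fit (lines), coloured by role; the dotted line is the median over all genes tested, 0.04. The interval of Idi2 lies below 0 and every other interval crosses it, widest for Scd1 and Fads2.

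In fatty acid synthesis each of the 9 genes had a difference below 0, and the median was -0.27. It was -0.50 when Lck-/- 1 was left out and -0.52 when WT 4 was left out as well. The genes that supply and join the carbon had the smaller differences, with a median of -0.22. Acly, which releases acetyl-CoA from citrate, read 5.86, 5.69, 5.95 and 5.61 in WT and 6.38, 5.48 and 5.31 in Lck-/-, a difference of -0.06 (SE 0.26), and -0.38 without Lck-/- 1. Over the 18 alternatives the Acly difference ran from -0.44 to 0.43 and changed sign in 5. Acaca, the acetyl-CoA carboxylase, read 5.01, 4.84, 4.87 and 4.74 in WT and 5.003, 4.47 and 4.44 in Lck-/-, a difference of -0.23 (SE 0.18), with -0.25, -0.17 and -0.11 for its other probes. Fasn, the fatty acid synthase, differed by -0.22 (SE 0.18). For both Acly and Acaca the array Lck-/- 1 lay near or above the highest WT value, and Lck-/- 2 and Lck-/- 3 lay below the lowest.

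The elongase Elovl6, which lengthens palmitate, read 3.05, 1.66, 2.63 and 2.08 in WT and 2.18, 1.66 and 1.47 in Lck-/-. WT 2 and Lck-/- 2 gave equal values to 2 decimals, and the difference was -0.59 (SE 0.34, limma adjusted p = 0.786). Elovl5, which elongates polyunsaturated chains, differed by -0.20 (SE 0.19).

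Of the 4 desaturases, Scd2, Fads2 and Scd1 spread widely within each group as well as between them. Scd2, which puts the first double bond into saturated chains, read 6.11, 4.43, 6.05 and 4.59 on WT 1 to WT 4 and 5.74, 2.58 and 3.56 on Lck-/- 1 to Lck-/- 3 (mm9 chromosome 19, 44381024 to 44381083). WT 1, WT 3 and Lck-/- 1 were high, WT 2 and WT 4 lower, and the other two Lck-/- arrays lowest. The WT mean was 5.30 ± 0.91 (SD, n = 4) and the Lck-/- mean 3.96 ± 1.62 (SD, n = 3). The difference was -1.34 (SE 0.77, limma adjusted p = 0.78), and -2.23 without Lck-/- 1. Over the 18 alternatives it ran from -2.46 to 0.56.

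Fads2, the delta-6 desaturase, had the same order of arrays except for the lowest pair: -0.67, -3.33, -0.77 and -2.59 in WT and -1.30, -4.97 and -7.20 in Lck-/-. It was not well above background on Lck-/- 2 and Lck-/- 3, so its difference of -2.65 (SE 1.31, limma adjusted p = 0.743) rests on values near background there. It was -0.95 with normexp and -1.10 in the deposited values. Scd1, a paralogue of Scd2, was well above background on WT 1, WT 3, WT 4 and Lck-/- 1 only, with values from -6.71 to 0.20 and a difference of -2.52 (SE 1.58), or -0.97 with normexp and -1.09 in the deposited values. Without Lck-/- 1 the differences of Fads2 and Scd1 were -4.24 and -4.26. No Lck-/- value was then well above background for either gene, so these are not sizes of a measured Lck-/- signal. With all arrays the sizes for both are set in part by signal near background. A second Fads2 probe, well above background on 5 arrays, differed by -1.12. Fads1, the delta-5 desaturase, was measured on all arrays and differed by -0.27 (SE 0.22).

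Of the 3 sterol efflux genes, both exporters had differences below 0, as most synthesis genes did. Abcg1, an exporter to lipoprotein, read 0.89, 0.34, 0.51 and 0.22 in WT and 0.69, -1.21 and -0.29 in Lck-/-. Lck-/- 1 lay within the WT range and the other two below it. The difference was -0.76 (SE 0.41, limma adjusted p = 0.757), and -1.24 without Lck-/- 1. Abca1, the exporter to lipid-poor apolipoprotein, read -2.74, -3.87, -3.01 and -4.20 in WT and -3.72, -4.34 and -4.10 in Lck-/-. On WT 4 and Lck-/- 2 it was not well above background. Its difference was -0.60 (SE 0.37), or -0.27 with normexp, -0.31 with the deposited values and -0.36 without WT 1. Nr1h2, which encodes the receptor LXR beta, read 4.82, 4.96, 5.42 and 4.91 in WT and 5.03, 5.02 and 5.20 in Lck-/-, a difference of 0.06 (SE 0.18). It became -0.15 with median scaling, which also moved the median of all genes from 0.04 to -0.16.

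Set side by side on each array, the classes ordered the arrays alike at the low end, where Lck-/- 2 and Lck-/- 3 lay, and differed in spread. The fatty acid mean relative to WT was 0.57, -0.70, 0.47 and -0.34 on WT 1 to WT 4 and 0.29, -1.43 and -1.55 on Lck-/- 1 to Lck-/- 3. It exceeded the sterol mean by 0.25 on WT 1, 0.34 on WT 3 and 0.12 on Lck-/- 1, and lay below it by values of -0.41 on WT 2, -0.19 on WT 4, -0.90 on Lck-/- 2 and -0.97 on Lck-/- 3. These means carry the values of Scd1 and Fads2 that are near background. Taken as medians over members, the classes were closer: on Lck-/- 2 and Lck-/- 3 the fatty acid median was -0.64 and -0.47 and the sterol median -0.51 and -0.55. The efflux mean was 0.30, -0.21, 0.29 and -0.38 in WT and -0.02, -0.87 and -0.42 in Lck-/-, within 0.34 of the sterol mean on every array. No test of the classes against each other was made.

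**Figure D4:**
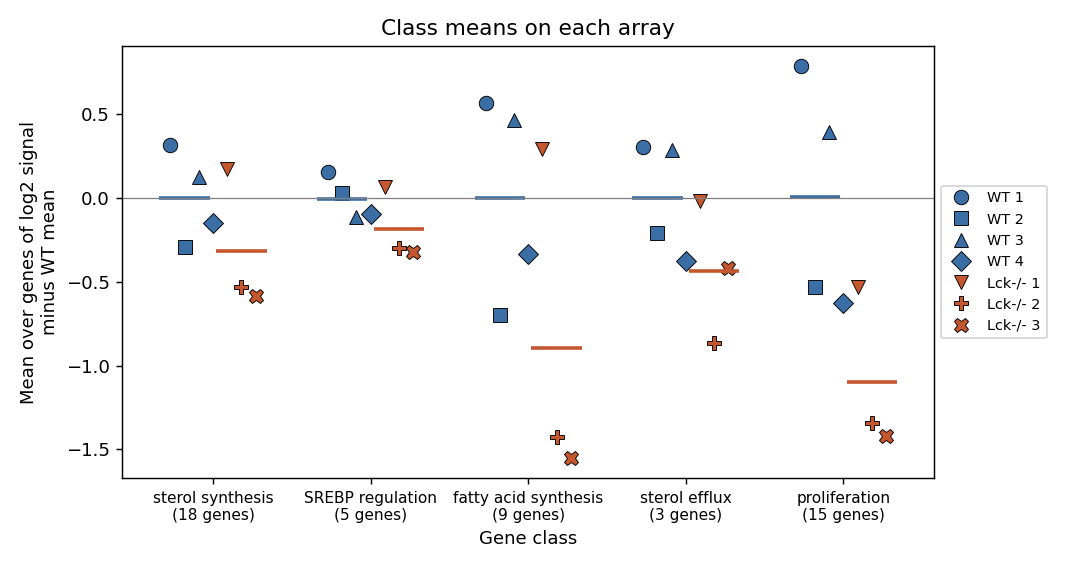
Mean over the genes of a class of log2 signal minus the gene's WT mean, for each array (symbols) and group (bars, mean of 4 WT or 3 Lck-/- arrays), for the 4 role classes and a list of 15 proliferation genes. In the sterol and fatty acid classes WT 1, WT 3 and Lck-/- 1 lie highest and Lck-/- 2 and Lck-/- 3 lowest; in the proliferation list Lck-/- 1 lies at -0.53, beside WT 2 and WT 4.

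Of the wider pathway, 27 genes from 3 further lists were tested and none passed. Among 12 of 13 other sterol genes that passed the background filter 6 had negative differences, with a median of -0.03. The cholesterol esterifying genes Soat2 and Soat1 had the largest differences of that list, each 0.82 (SE 0.27 and 0.31, limma adjusted p = 0.623 and 0.674). Soat2 read 2.17, 1.65, 2.67 and 1.71 in WT and 2.77, 2.68 and 3.15 in Lck-/-, and Soat1 -3.20, -2.31, -3.24 and -2.08 in WT and -1.997, -1.96 and -1.71 in Lck-/-. All 3 Lck-/- arrays were above all WT arrays for both, as for 5.09% of all genes. Of 12 other fatty acid genes 10 were tested, 6 of them below 0 and the median at -0.02, the largest being those of the acyl-CoA synthetase Acsl3 (-0.71, SE 0.37) and the carboxylase Acacb (-0.41, SE 0.24). Among 5 other LXR targets 1 was negative, with a median of 0.07. The largest there were the transporters Abcg4 (-0.47, SE 0.58) and Abca7 (0.20, SE 0.16). Abcg4 read 2.17 on WT 3 and from -0.45 to 0.05 on the other WT arrays. Its other passing probes differed by 0.44 and 0.41, the opposite direction.

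Proliferation genes were also lowest on Lck-/- 2 and Lck-/- 3. The 15 proliferation genes, among them Mki67 and Top2a, each had a difference below 0, the median being -1.04, and none passed the test. An unadjusted limma p under 0.05 with lower signal was found for 11 of them, against 2.17% of all genes. In 4 the Lck-/- arrays lay below WT without overlap, against 2.14% of all genes. The mean of the 15 genes relative to WT was 0.79, -0.53, 0.39 and -0.63 on WT 1 to WT 4 and -0.53, -1.34 and -1.42 on Lck-/- 1 to Lck-/- 3. With this mean as a covariate, an alternative added after the data were seen, 3 of the 18 sterol genes and 1 of the 9 fatty acid genes had negative differences, and the medians were 0.23 and 0.30, with 0 of the 35 members called. Scd2 was then at 0.56 and Hmgcs1 at 0.23, while Idi2 was at -1.40. The covariate itself differs between the groups, so this fit cannot tell a part shared with proliferation from a part owed to the label.

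NK cell markers (9 of 10 tested) all had positive differences. Their list mean was -0.74, -0.01, -0.87 and 1.53 on WT 1 to WT 4 and 0.39, 2.02 and 0.62 on Lck-/- 1 to Lck-/- 3. With that mean as a covariate the sterol median was -0.13, with 12 of 18 negative, and the fatty acid median -0.29. Of 7 adipocyte markers, Adipoq, Fabp4, Lep and Plin1 were well above background on 0 arrays and Cidec on 1, while Cfd and Lpl were tested. Cfd read -5.02, -6.28, -5.47 and -5.14 in WT, not well above background there, and -4.38, -3.34 and -1.27 in Lck-/-. Cfd entered the comparison only through the arrays on which it was higher, so its order of groups is no result. Among B cell markers Cd79a and Cd79b were tested, with a mean from -0.43 to 0.14 in WT and 0.23 to 0.93 in Lck-/-, while Ms4a1 was above background on 0 arrays and Pax5 on 1. Of the myeloid list 7 of 8 were tested, with a mean from -0.54 to 0.52 in WT and 0.02 to 0.66 in Lck-/-, and of the stroma list 4 of 6, from -0.29 to 0.17 and from -0.10 to 0.17. The part of B, myeloid, adipocyte and stromal cells in the lipid gene values was not tested, and in bulk RNA fewer cells of a type and less RNA per cell cannot be told apart.

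**Figure D5:**
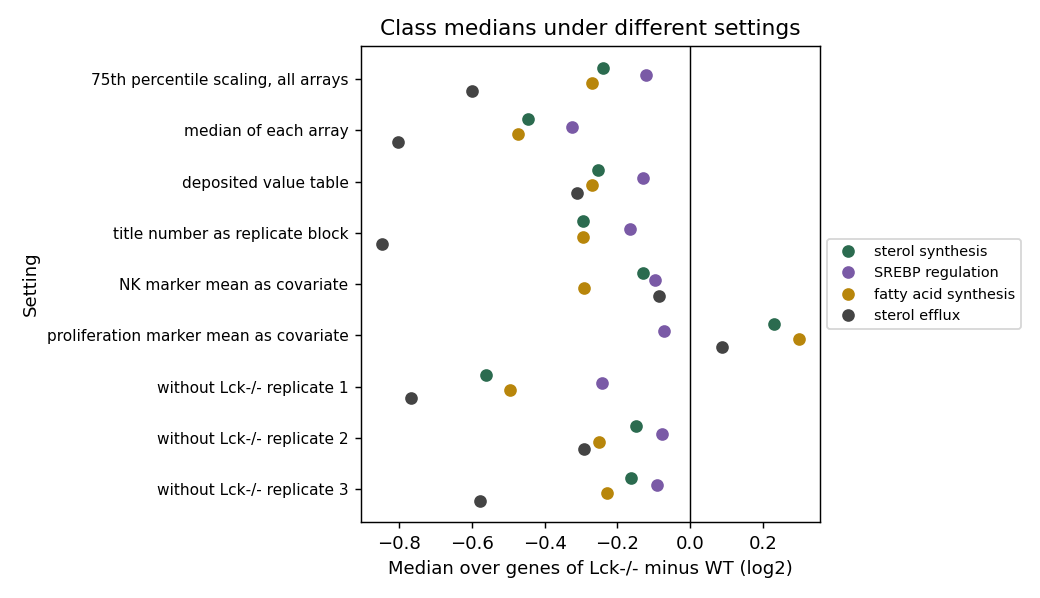
Median over the genes of each role class of the difference Lck-/- minus WT (log2), under 9 settings of scaling, covariates and arrays used. The sterol, fatty acid and efflux medians lie above 0 with the proliferation marker mean as a covariate and below 0 in the other settings drawn.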

How the data were processed

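Each sample was hybridised to 1 Agilent array from 50 ng of Cy3-labelled total RNA (RNA integrity number above 8, per the labels' protocols). The deposited scanner files give spot intensity from Agilent Feature Extraction 10.7.3.1, background-subtracted and detrended within each array but not scaled between arrays, per the file headers. The table of log2 values deposited by the authors correlated with the log2 median signal at 0.9994 to 0.9998 per array. The sources used here do not give its scaling between arrays, and it was used as an alternative. The submitters' processing notes name limma, without version or role.

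From the intensities, log2 of the processed signal was taken, less the 75th percentile of the same array over 59305 non-control spots. Outlier-flagged spots were left out, spots of a probe averaged, and probes kept when well above background on at least 3 of 7 arrays. Of 55681 probes 33184 carried a gene name, updated through the RefSeq table of GRCm38.p6 (27235 by accession, 3568 by symbol, 564 by synonym, 1817 as in the file), and 22497 with only an accession, probe ID or interval were left out. A gene was its probe with the highest mean, which left 14848 genes. Of the 53 member probes 50 passed, and for 9 of the 12 members with several such probes all lay on the same side of 0. Arrays labelled Lck-/- (3) and WT (4) were compared with limma 3.58.1 in R 4.3.3 (lmFit, eBayes, two-sided, Benjamini-Hochberg over all genes, threshold 0.05), and the procedure was tested on simulated data. The 95% intervals are the limma fit's for each gene alone. The number of arrays limits the precision.

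The members and gene lists were chosen with earlier results of these data known, so lists are described by counts and medians only. Values by array are given for the 3 members of each class with the highest mean, all regulators and efflux genes, and the 8 members with the smallest p-values. Of each further pathway list the 2 largest differences are named. Scd1, Stard4 and the other members are given by difference or range. Dhcr7 is also given by its Lck-/- arrays, outside this rule. The numbers in the titles were not used as pairs, since same-numbered arrays correlated in their deviations at 0.10, 0.06 and -0.03. The alternatives tried were quantile normalization alone, normexp (offset 50) before it, the array median, the deposited table, 2 other filters, the mean of probes, the title number as a block, an NK covariate, leaving out each array, leaving out WT 4 with Lck-/- 1, and, added later, a proliferation covariate.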

Additional observations from a re-analysis of the deposited data

Results flagged for a closer look

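Among the WT arrays, the Idi2 value of WT 3 (-2.55) stood apart from the other three (-2.13, -2.12 and -2.19). Its gap to the nearest was 0.832 of the group's range, just above Dixon's critical value for 4 values. Of 38 members and class means looked at in the 4 WT arrays, this was the only 1 so marked, where chance marks about 1 in 20. Without WT 3 the Idi2 difference was -1.33 (limma adjusted p = 0.388). Insig1 had 3 WT values and was not looked at.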

How the results depend on the processing

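No member was called in any of the 18 alternatives (limma, 627 member fits). The count of genes called was 0 to 1 on leaving out 1 array (Xist without WT 1, the WT array with Xist signal), 1 with the title number as a replicate block (Klra15, a pairing the check did not bear out) and 57 without both WT 4 and Lck-/- 1, none of them members. Those 2 genes were named after their values were seen. Leaving out both arrays gave medians of -0.60 for sterol, -1.02 for efflux and -0.31 for regulator genes. Leaving out 1 array moved the sterol median between -0.56 and -0.15, the fatty acid median between -0.50 and -0.18, the efflux median between -0.85 and -0.29 and the regulator median between -0.24 and -0.06. Scaling to the array median moved the median of all genes from 0.04 to -0.16 and the regulator median to -0.33. Relative to the median of all genes, the regulator median was -0.16 with either scaling. The NK covariate moved the efflux median to -0.0854. The proliferation covariate, added after seeing the data, gave 0.23 for sterol and 0.0869 for efflux genes. With the replicate block the sterol median was -0.29. Over all settings 6 members (Acat2, Idi2, Ebp, Scap, Insig1 and Fasn) kept their sign and 29 changed it in at least 1. The sterol, fatty acid and efflux medians were each below 0 in 18 of 19 settings, and the regulator median in all 19. The setting with medians above 0 was the proliferation covariate. The cause of these shifts was not tested. Signal close to background limits Scd1, Fads2 and Abca1, which the strictest filter removes.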
